A study of Mus musculus with 16 samples.

Results

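The 80 genes described here encode proteins of the cytosolic ribosome, or carry a symbol of that family. They were chosen by symbol and level: every gene named Rpl or Rps with a number, or Rplp0, Rplp1 or Rplp2, without -ps in the name, leaving out the Rps6k kinases, with normalised counts that averaged 50 or more. The same 80 genes met this rule in each of the 3 deposited tables, out of 13143 genes listed for TDM culture, 13284 for TDMa culture and 14933 for TDMa tumours. They comprised 42 genes of the large subunit, 30 of the small subunit and 3 of the ribosomal stalk, 4 paralogues (Rpl22l1, Rpl7l1, Rps27l and Rpl37rt), and Rps19bp1, whose symbol matched although its product is a binding partner of a ribosomal protein. A further 6 matching symbols in TDM culture, 6 in TDMa culture and 8 in TDMa tumours lay below the level. The 8 include the large-subunit gene Rpl24, at 7.95 in TDMa tumours, which was not among the matching symbols of either culture table. Just inside it were Rps10 at a mean normalised count of 56.7 in TDM culture and 52.1 in TDMa culture, and Rpl37rt at 91.6 in TDMa tumours, and just outside were Rps3a2 at 35.8, Rpl6l at 32.9 and Rps3a2 at 28.4. The symbol rule leaves out some genes whose products also belong to the cytosolic ribosome, such as Rpsa, Fau and Rack1, and these are given apart from the members.

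RNA sequencing was done on 16 libraries of B16F10, an established mouse melanoma line, in its derivatives B16F10-TDM and B16F10-TDMa. Every library came from cells transduced with a guide RNA, either the non-targeting sgScramble or sgNlrc5, which targets Nlrc5, a transactivator of MHC class I genes. Each guide was sequenced in 2 libraries of cultured TDM cells, 2 of cultured TDMa cells and 4 of tumours of the TDMa cells. The labels give no tumour site, host strain or age, and do not say what TDM and TDMa abbreviate or whether a replicate was its own culture, clone or animal, so p-values measure only the spread between these samples. Recovered reads over the listed genes ran from 12183889 to 16390886 per library. Nlrc5 was higher with sgNlrc5 in all 3 tables, by log2 1.91 ± 0.34 (SE) in TDM culture, 3.66 ± 0.061 in TDMa culture and 2.88 ± 0.28 in TDMa tumours (limma adjusted p = 0.012, 5.3e-18 and 3.1e-05). The melanocyte markers were present in every table (7 of 7 tested), with summed normalised counts of 565550 to 953576 over the tumour libraries.

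The cytosolic ribosome joins a small subunit, which reads the messenger RNA, to a large subunit, which forms the peptide bond, and its proteins are needed in near-equal numbers. The stalk proteins recruit the translation factors that drive elongation. Most ribosomal protein messenger RNAs start with a short run of pyrimidines, the terminal oligopyrimidine or TOP motif, through which mTORC1 and the RNA-binding protein LARP1 set how strongly they are translated and how stable they are, and MYC raises the transcription of many ribosome genes. These transcripts are among the most abundant in growing tumour cells.

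Promoter windows from RefSeq (GRCm38.p6, mostly upstream and up to 50 bases downstream of each annotated start) were matched by symbol to 60 of the 80 genes. Within 50 bases either side of the start, the letters CTTTC stood on the transcript strand in 30 of the 60 genes, against 12.8% of all 32851 windows and 14.6% of 27025 genes. CGGAAG, the core of ETS-family sites, stood on either strand of the whole window in 40 of the 60, against 16.9% of windows and 18.8% of genes. The E-box CACGTG was found in 6 of the 60, against 7.15% of windows and 8.09% of genes. AAGATGG, the core of YY1 sites, was found in 10 of the 60, against 6.34% of windows and 7.28% of genes (both strands for each). AAGATGG can share its first 3 letters with the end of CGGAAG. A match describes these letters only, and a gene without CTTTC can still have a run of pyrimidines at its start. The 6 stretches below run from 60 bases before to 25 bases after the annotated start, and are shown because the results turn on these genes: Rpl26 and Rpl34 were lower with sgNlrc5 in TDMa culture and in tumours, Rpl4, Rps3a1 and Rpl12 were higher in TDMa culture and lower in tumours, and Rplp0 was higher in TDMa culture and not called in tumours. Capitals mark CTTTC on the transcript strand and CGGAAG, or its reverse complement, on either strand. They lie at chr11:68901506-68901590 (plus strand) for Rpl26, chr3:130730313-130730397 (minus) for Rpl34, chr9:64173327-64173411 (plus) for Rpl4, chr3:86142644-86142728 (minus) for Rps3a1, chr2:32961652-32961736 (plus) for Rpl12 and chr5:115559407-115559491 (plus) for Rplp0.
Rpl26: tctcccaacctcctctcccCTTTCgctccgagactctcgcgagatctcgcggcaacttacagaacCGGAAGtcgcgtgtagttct
Rpl34: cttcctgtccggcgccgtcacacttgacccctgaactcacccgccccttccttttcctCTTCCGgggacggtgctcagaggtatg
Rpl4: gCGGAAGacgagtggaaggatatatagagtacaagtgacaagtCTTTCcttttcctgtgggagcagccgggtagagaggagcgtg
Rps3a1: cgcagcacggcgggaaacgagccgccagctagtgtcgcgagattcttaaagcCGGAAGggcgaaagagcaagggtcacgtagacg
Rpl12: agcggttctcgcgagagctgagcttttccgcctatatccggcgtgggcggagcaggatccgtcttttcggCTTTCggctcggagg
Rplp0: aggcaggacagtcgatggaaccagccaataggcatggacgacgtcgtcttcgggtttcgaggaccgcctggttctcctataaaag

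The members differed widely in level among themselves. Per kilobase of the principal transcript, the median member stood at a normalised count of 10710 in TDM culture, 11106 in TDMa culture and 9425 in TDMa tumours, against medians of 150 and 140 for the other tested genes of the culture tables. Of the 80 genes, 66, 65 and 64 lay above the 99th percentile of the other genes in the 3 tables. In TDM culture the highest per kilobase were Rps2 at 34169, Rpl41 at 30016, Rps18 at 27735, Rplp1 at 27354 and Rplp0 at 24002. The 5 lowest were the same in each table: Rps10, Rpl37rt, Rpl22l1, Rpl13a and Rps19bp1. Rps10, a small-subunit protein at the messenger RNA entry side, stood at 63.9 per kilobase in TDM culture and Rpl13a, a large-subunit protein known for a role in interferon-gamma-dependent translational silencing, at 331. Both are low beside the other subunit genes, and ribosomal protein genes have many near-identical processed copies that can share or lose reads in counting, so the levels of single members are uncertain. Genes named as -ps copies (80, 77 and 67 listed in the 3 tables) held 0.0130% to 0.0242% of the listed reads in any library, and Rps6-ps4 was the most abundant of them in each table.

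In TDM culture the 80 genes took 5.63% and 5.67% of the reads over listed genes with sgScramble, and 6.02% and 5.62% with sgNlrc5. In TDMa culture the shares were 6.35% and 6.18% with sgScramble and 6.39% and 6.23% with sgNlrc5. The guide groups of each culture table overlapped. In TDMa tumours the 4 sgScramble libraries stood at 5.91%, 5.18%, 4.92% and 6.18% (5.55% ± 0.595, SD, n = 4), and the 4 sgNlrc5 libraries at 4.27%, 3.81%, 4.28% and 4.02% (4.09% ± 0.224, SD, n = 4). Every sgNlrc5 tumour lay below every sgScramble tumour, and sgScramble tumours 1 and 4 were the highest.

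**Figure D1:**
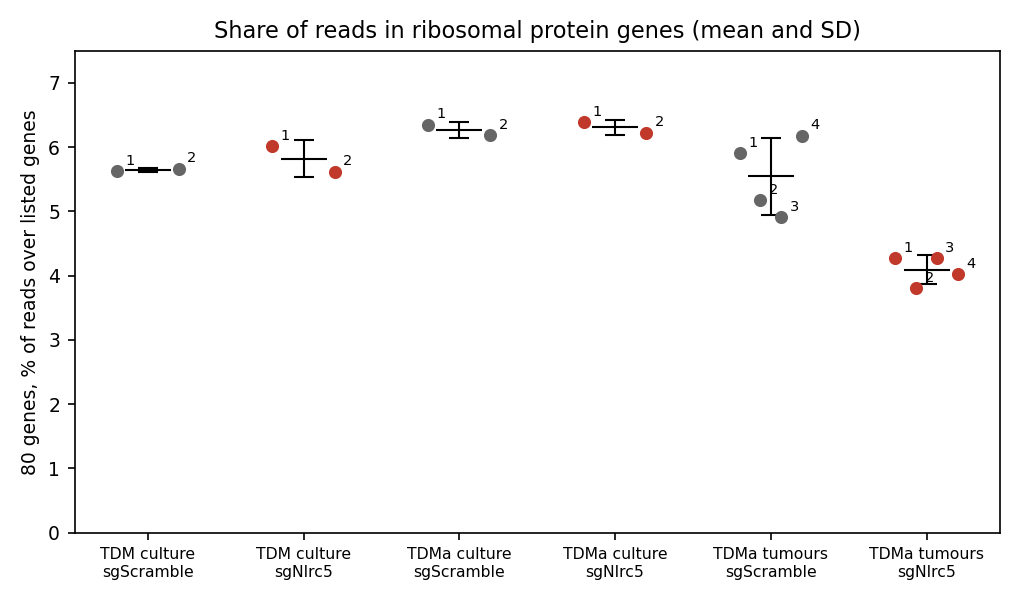
Share of the reads over listed genes that fell in the 80 ribosomal protein genes (vertical axis, %), by group. Points are libraries with their replicate numbers, and bars are the group mean and SD. The sgNlrc5 tumours lie between 3.81% and 4.28%, below the sgScramble tumours at 4.92% to 6.18%, while the culture groups overlap.

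The guide contrast was fitted for every gene whose normalised counts averaged 10 or more, as log2 values of sgNlrc5 minus sgScramble, and a gene was called at a limma adjusted p under 0.05. In TDMa tumours 55 of the 80 genes were lower and 0 higher, against backgrounds of 19.7% of all genes called lower and 19.7% called higher. The median member differed by -0.36, with quartiles at -0.52 and -0.26, against -0.01 over all 13385 genes tested. The difference was negative for 78 of the 80. In bulk tumour RNA, fewer cells with abundant ribosomal protein transcripts and less of these transcripts per cell cannot be told apart.

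**Figure D2:**
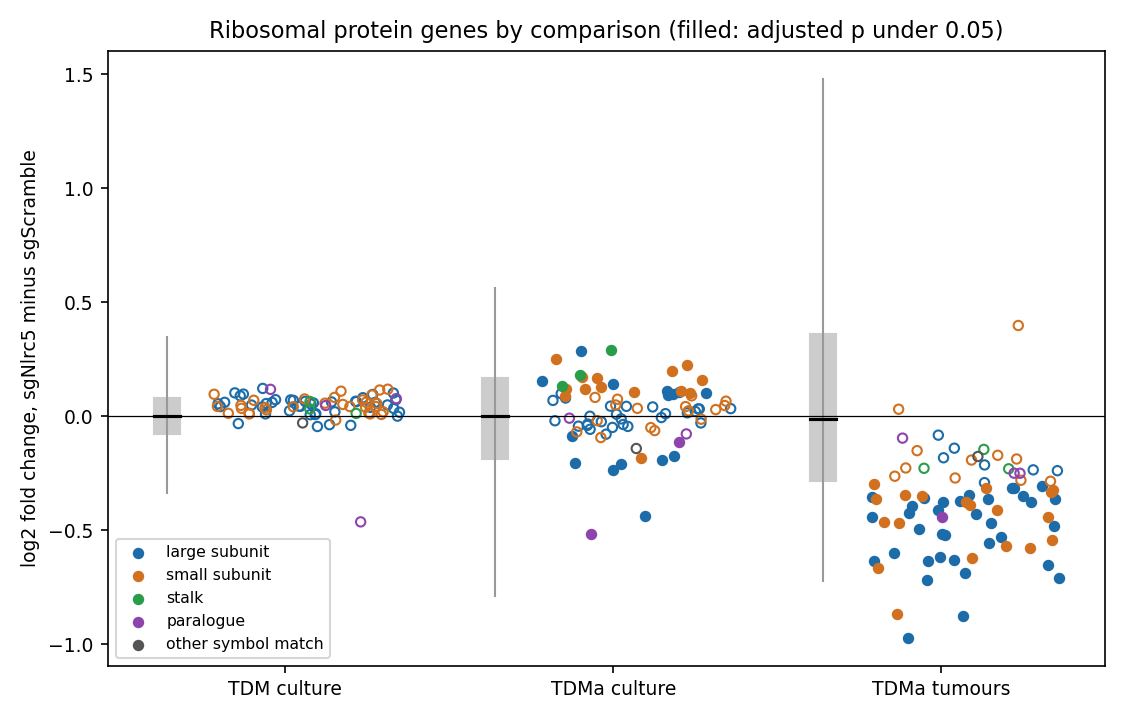
Log2 fold change of each of the 80 genes (vertical axis, sgNlrc5 minus sgScramble) in the 3 tables. Filled points passed adjusted p under 0.05, colours give the subunit, and beside each cloud the grey box and line span the quartiles and the 5th to 95th percentiles of all genes tested, with a bar at their median. The cloud sits near 0 in TDM culture, spreads to both sides in TDMa culture and lies below 0 in TDMa tumours, where its median is -0.36.

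Of the large-subunit genes, 35 of 42 fell in tumours and none was positive (median -0.42, range -0.97 to -0.08). Rpl17, a protein at the exit of the peptide tunnel, stood at 9170, 8173, 7952 and 10032 normalised counts in sgScramble tumours 1 to 4, and at 5239, 4368, 4058 and 4351 in sgNlrc5 tumours. The groups were separate, with the lowest sgScramble value far above the highest sgNlrc5 value, and Rpl17 fell by 0.97 ± 0.11 on the log2 scale (limma adjusted p = 6.2e-05), the largest decrease among the members. Rpl26, a tunnel-exit protein also known to bind Trp53 messenger RNA, stood at 11360, 10111, 9989 and 12596 with sgScramble and at 6691, 6207, 5282 and 5819 with sgNlrc5, and fell by 0.88 ± 0.11 (limma adjusted p = 0.00012). Rpl34, a protein of the large subunit, read 4979, 4181, 4299 and 5398 against 3086, 2943, 2763 and 2703, and fell by 0.71 ± 0.097 (limma adjusted p = 0.00025). For both genes the groups did not overlap. Rpl32 fell by 0.72 ± 0.11, Rpl23 by 0.69 ± 0.11 and Rpl15 by 0.65 ± 0.093 (limma adjusted p = 0.00049, 0.00054 and 0.00032), all of them proteins of the large subunit. Rpl4, whose long loop lines the peptide tunnel, stood at 26711, 22983, 21494 and 26733 with sgScramble and 16481, 14787, 16079 and 16182 with sgNlrc5, and fell by 0.62 ± 0.11 (limma adjusted p = 0.0012).

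Rpl5 and Rpl11 form, with 5S ribosomal RNA, the particle that restrains Mdm2 when ribosome assembly is disturbed. Rpl5 stood at 15057, 13092, 12399 and 15786 in sgScramble tumours and at 9810, 9302, 9073 and 8841 in sgNlrc5 tumours, a fall of 0.60 ± 0.10 (limma adjusted p = 0.00094). Rpl11 stood at 10408, 8859, 8100 and 10832 against 6985, 7862, 7391 and 7275, a fall of 0.36 ± 0.11 (limma adjusted p = 0.018). The groups of both were separate, although the gap was narrow for Rpl11, whose call was lost without sgScramble tumour 1 or without sgScramble tumour 4. Rpl13a, at low counts of 262, 230, 285 and 302 against 214, 183, 163 and 139, fell by 0.64 ± 0.15 (limma adjusted p = 0.0059).

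Of the small-subunit genes, 19 of 30 fell and 0 rose (median -0.34). Rps24, an early assembly protein of the small subunit that is mutated in some Diamond-Blackfan anaemia, stood at 12995, 11242, 11071 and 14814 with sgScramble and at 8200, 6650, 6050 and 6518 with sgNlrc5. These groups were separate, and Rps24 fell by 0.87 ± 0.12 (limma adjusted p = 0.00032). Rps27a, made as a fusion of ubiquitin with a small-subunit protein, fell by 0.67 ± 0.11 (limma adjusted p = 0.0009), and its values of 15516, 13229, 13741 and 16733 against 10776, 9147, 9062 and 8337 did not overlap. Rps6, the protein phosphorylated by S6 kinase, stood at 10925, 8671, 7802 and 10542 against 6622, 6988, 7118 and 7519, and fell by 0.41 ± 0.11 (limma adjusted p = 0.014). Rps2 fell by 0.47 ± 0.12 (limma adjusted p = 0.01), from the highest small-subunit level of 26742 to 32718 down to 19739 to 24064. The only positive differences were in Rps10 and Rps21, and neither passed the test. Rps10 read 110, 64.0, 110 and 111 with sgScramble and 184, 176, 91.3 and 89.4 with sgNlrc5, a difference of 0.40 ± 0.28 (limma adjusted p = 0.27), so sgNlrc5 tumours 1 and 2 were high and 3 and 4 were not. Rps21 differed by 0.03 ± 0.12 (limma adjusted p = 0.86).

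None of the 3 stalk genes was called in tumours. Rplp0, the base of the stalk, stood at 32862, 27276, 26495 and 32442 with sgScramble and at 24051, 23811, 28064 and 25297 with sgNlrc5, so the groups overlapped through sgNlrc5 tumour 3, and the difference was -0.23 ± 0.12 (limma adjusted p = 0.16). The stalk arms Rplp1 and Rplp2 differed by -0.15 ± 0.11 and -0.23 ± 0.12 (limma adjusted p = 0.34 and 0.14).

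Of the 4 paralogues 1 was called in tumours. Rpl22l1, a paralogue that can replace Rpl22 and is regulated by it, stood at 202, 159, 198 and 222 with sgScramble and at 159, 151, 109 and 156 with sgNlrc5 (-0.44 ± 0.16, limma adjusted p = 0.043). The groups touched, since sgScramble tumour 2 and sgNlrc5 tumour 1 both stood at 159. Its partner Rpl22 stood at 6403, 5197, 5109 and 6726 against 4518, 3948, 4033 and 3797 and fell by 0.52 ± 0.11 (limma adjusted p = 0.003). Rps27l, a p53-responsive paralogue of Rps27, differed by -0.10 ± 0.10 and Rps27 by -0.26 ± 0.10 (limma adjusted p = 0.49 and 0.055). Rpl7l1, a nucleolar assembly factor related to Rpl7, differed by -0.25 ± 0.12 (limma adjusted p = 0.12), while Rpl7 fell by 0.43 ± 0.098 (limma adjusted p = 0.005). Whether a paralogue differed from its partner was not tested. The call of Rpl22l1 was lost when any of 6 single tumours was left out.

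**Figure D3:**
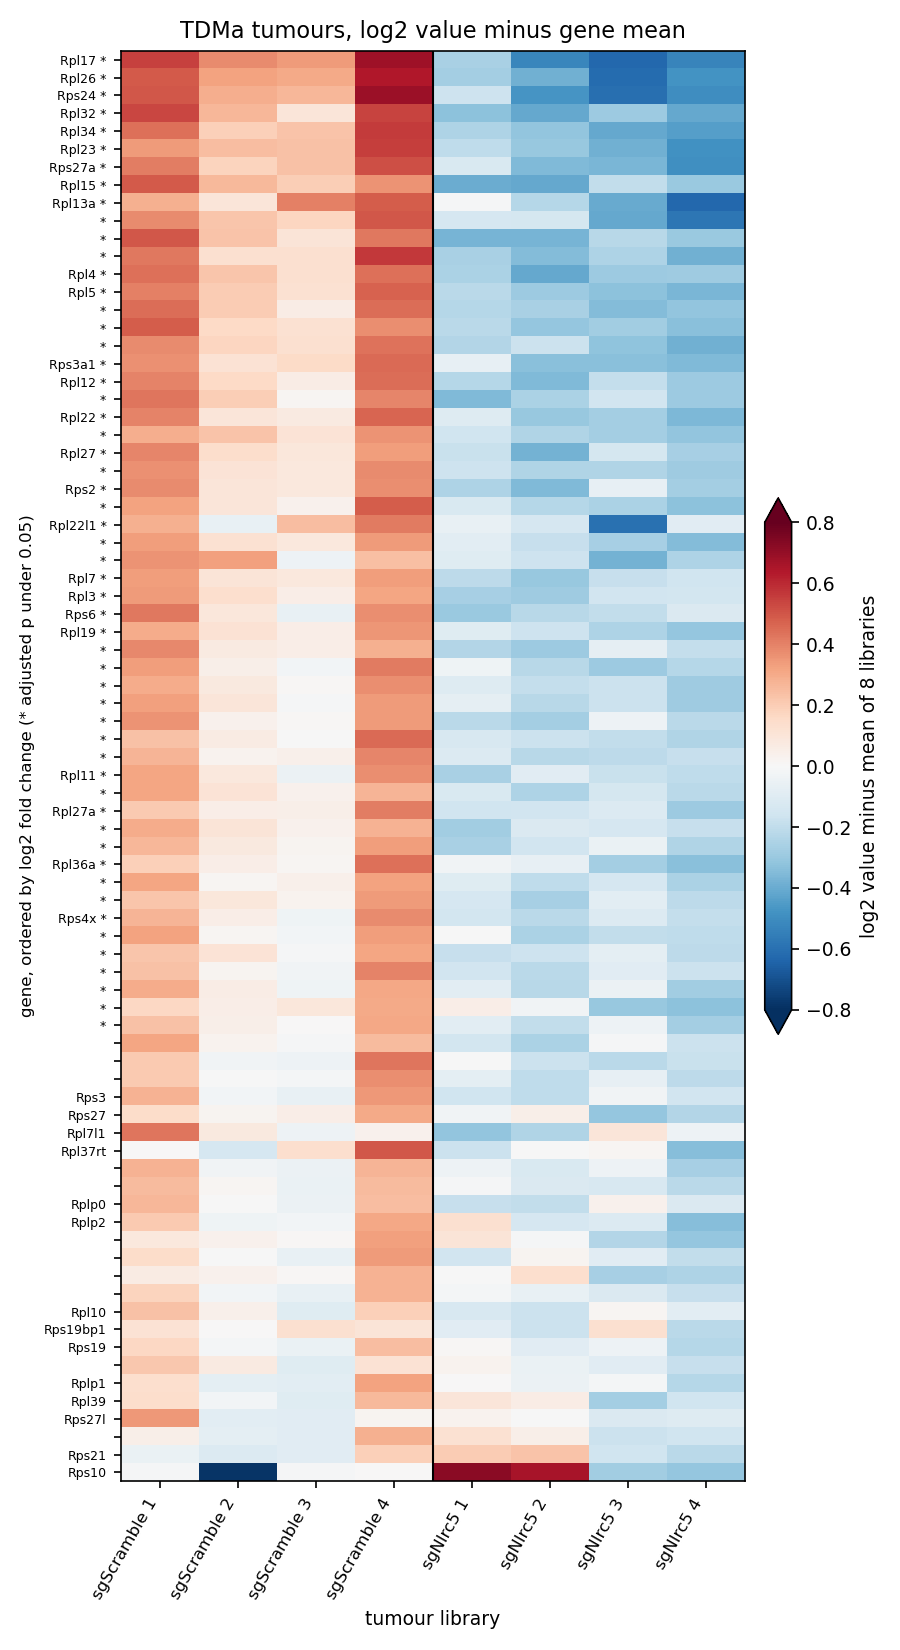
Values of the 80 genes (rows, ordered by log2 fold change, with names for the genes of the naming rule only and * for adjusted p under 0.05) in the 8 TDMa tumours (columns, sgScramble left of the line, sgNlrc5 right). Colour is the log2 value minus the gene's mean over the 8 libraries. sgScramble tumours 1 and 4 are the darkest red, sgScramble tumours 2 and 3 are pale in many genes, and Rps10 at the bottom shows the opposite pattern in sgNlrc5 tumours 1 and 2.

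The groups of the 8 tumours were fully separate, with sgNlrc5 below sgScramble, for 54 of the 80 genes, and 0 were separate the other way, against 19.1% and 18.1% of all genes tested and against the 19.7% called lower. The other 26 members overlapped. The libraries did not contribute equally. sgScramble tumour 4 was the highest of the 8 for 56 members and sgScramble tumour 1 for 21, while sgNlrc5 tumour 4 was the lowest for 39. With sgScramble tumours 2 and 3 alone as controls, 23 members were lower, against 12.5% of all genes in that fit, and the median was -0.22. In that fit Rpl17, Rpl26, Rps24, Rpl32, Rpl34, Rpl23, Rps27a, Rpl15, Rpl5 and Rpl22 were among those that stayed called. Leaving out any single tumour left between 42 and 58 members lower, and the shares of all genes in those fits are not given here.

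Markers of cells other than melanoma also differed between the tumour groups. All 9 T cell markers, all 8 macrophage markers and all 5 general leukocyte markers were higher with sgNlrc5 (median log2 differences of 2.84, 1.92 and 1.83). The summed normalised counts of the macrophage markers ran from 3019 to 4531 with sgScramble and from 11490 to 14689 with sgNlrc5, those of the leukocyte markers from 671 to 1546 and from 2655 to 4290, and those of the T cell markers from 102 to 153 and from 352 to 1233. In TDMa culture 0 T cell markers were listed, but 1 macrophage marker was, at 700 to 760 with sgScramble and 1023 to 1069 with sgNlrc5. It was called higher there, so the macrophage sums in tumours may include reads from melanoma cells. Of 7 melanocyte markers 2 were higher and 1 lower, with sums of 565550 to 637913 against 597997 to 953576. Of the keratinocyte markers, 0 of 5 were listed, and of the erythroid markers 1 of 5 was lower. Reads from mitochondrially encoded genes took 2.65% to 5.12% of the listed reads with sgScramble and 2.95% to 7.11% with sgNlrc5, highest in sgNlrc5 tumours 1 and 2. The part of these differences in the ribosomal protein result was not tested. Without sgNlrc5 tumours 1 and 2, left out after these values were seen, 48 members were lower, against 15.3% of all genes in that fit, and the median was -0.38.

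Other genes of like transcript length or level were set beside the members. In tumours the 33 members with transcripts over 600 and up to 1000 bases had a median of -0.36, against 0.07 for 757 other genes of that length, and the 27 members with mean normalised counts over 10000 had a median of -0.40 against 0.01 for 118 other genes. The other genes with mean normalised counts of 10 to 100, a range that holds 1 member, had a median of 0.30.

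In TDMa culture the members moved both ways. There were 24 higher and 10 lower of 80, against backgrounds of 17.3% higher and 16.9% lower, and the median was 0.03 against -0.00 over 12138 genes. All 3 stalk genes were higher. Rplp0 stood at 34347 and 34373 normalised counts with sgScramble and at 41898 and 42071 with sgNlrc5, a log2 difference of 0.29 ± 0.022 (limma adjusted p = 9.2e-09). Rplp2 differed by 0.18 ± 0.031 and Rplp1 by 0.13 ± 0.028 (limma adjusted p = 0.00016 and 0.0011). Both groups were separate for each of these genes, as they were for 49 members in all, of which 32 lay above and 17 below, against 33.3% and 33.0% of all genes.

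Among small-subunit genes 13 of 30 rose and 1 fell in TDMa culture, while among large-subunit genes 8 of 42 rose and 7 fell. Rps2, a protein at the messenger RNA entry tunnel, rose from 41728 and 41523 to 50129 and 48820 (0.25 ± 0.023, limma adjusted p = 8.5e-08). Rpl12, which sits at the stalk base beside Rplp0, rose from 17871 and 17195 to 21356 and 21358 (0.28 ± 0.026, limma adjusted p = 1.1e-07). Rps27 and Rps19, the latter a frequent target in Diamond-Blackfan anaemia, rose by 0.22 ± 0.043 and 0.20 ± 0.030 (limma adjusted p = 0.00044 and 4.3e-05). Rpl34 had the largest decrease among the abundant members, from 4901 and 4367 to 3465 and 3358, and fell by 0.44 ± 0.045 (limma adjusted p = 4.4e-07). Rpl27 fell by 0.24 ± 0.037, Rpl23 by 0.21 ± 0.029 and Rpl19 by 0.21 ± 0.035 (limma adjusted p = 5.2e-05, 1.4e-05 and 0.00014). Rpl22l1, at 136 and 105 against 82.1 and 84.3, fell by 0.51 ± 0.19 (limma adjusted p = 0.043) and lost its call when any 1 library was left out.

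The balance of directions in TDMa culture followed the scaling of the libraries. With quantile normalisation 11 members were higher and 21 lower, against 15.3% and 15.8% of all genes, and the median was -0.02 against 0.01 over all genes. With the libraries scaled to equal sums over listed genes 13 were higher and 19 lower, against 13.5% and 21.3%, and the median was -0.01 against -0.05 over all genes, so under this scaling the calls of all genes shifted down as well. Without the intensity trend in the variances, 1 member (Rplp0) was higher and 0 lower, against 5.95% and 7.08% of all genes in that fit. Rpl12, Rps2, Rps27, Rps19, Rplp1 and Rplp2 stayed higher, and Rpl34, Rpl27, Rpl23, Rpl19, Rpl26 and Rps27a stayed lower, under all 3 other scalings and when any 1 library was left out. Rplp0 lost its call under quantile normalisation, and Rps3 and Rpl3 turned to -0.01 and -0.03 there. That setting gives genes of the same rank the same value in every library, so the most abundant genes have little room to differ. Eef1a1, for example, went from 0.24 to 0, so a call lost there by an abundant member cannot be read as the absence of a difference.

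Position in the genome went with the decreases. Of the 7 members on chromosome 11 (Rpl19, Rpl23, Rpl23a, Rpl26, Rpl27, Rpl38 and Rps27a), 6 were lower in TDMa culture, with a median of -0.19. The 989 other genes tested on that chromosome had a median of -0.22, and 51.1% of them were lower. On all other chromosomes, 24 members were higher and 4 lower (Rpl15, Rpl22l1, Rpl34 and Rpl7l1), with a median of 0.03. In tumours, the other genes had medians of -0.35 on chromosome 18, -0.32 on chromosome 14, -0.18 on chromosome 11 and -0.16 on chromosome 6, chromosomes picked after these values were seen. The 12 members on these 4 chromosomes were all lower in tumours (median -0.66), and they include Rpl17, Rpl26, Rps24, Rpl32, Rpl23, Rps27a and Rpl15, which are 7 of the 8 members with the largest called decreases. On the remaining chromosomes 43 of 68 members were lower, with a median of -0.35. After the median of the other genes on its chromosome was taken from each member's difference, the spread over members in tumours narrowed from an SD of 0.210 to 0.171, the median was -0.37 and 79 of the 80 were negative. Chromosomes were read from GENCODE M21, and what underlies the chromosome-wide differences was not tested.

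**Figure D4:**
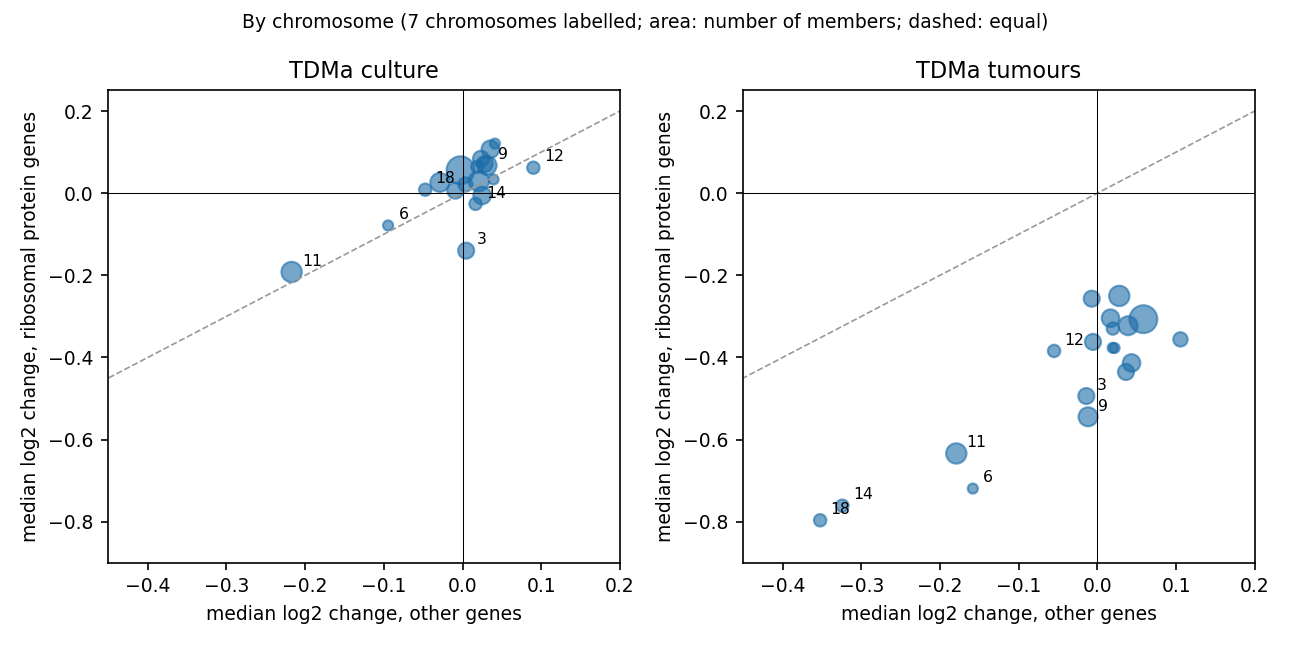
Median log2 difference of the members on each chromosome (vertical axis) against that of all other genes tested there (horizontal axis), in TDMa culture and TDMa tumours. Point area grows with the number of members, the dashed line marks equal values and 7 chromosomes are labelled. Chromosome 11 lies near the line at -0.22 and -0.19 in TDMa culture, while in tumours every chromosome with a member lies below the line.

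In TDM culture no member was called: 0 were higher and 0 lower, against backgrounds of 0.284% higher and 0.234% lower in limma, and 7 of 80 passed an unadjusted p under 0.05, beside 1084 of 11989 genes (voom on the recovered reads also called 0). The median was 0.05, and 73 of 80 differences were positive, but without sgNlrc5 library 1 the median was -0.00805 and without library 2 it was 0.102. The smallest p among positive members were those of Rpl27a, a protein of the large subunit, with 8855 and 8861 normalised counts against 9951 and 9339 (0.12 ± 0.043, limma adjusted p = 0.38), and of Rps19 (0.12 ± 0.043, limma adjusted p = 0.41). sgNlrc5 library 1 lay above the gene mean of the table for 77 members, and the other 3 libraries for 9 to 16. Among negative members Rpl37rt had the smallest p, with 156 and 91.2 against 85.5 and 87.1 (-0.46 ± 0.22, limma adjusted p = 0.57), where sgScramble library 1 alone was high.

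The difference between the lines was tested as TDMa culture minus TDM culture, which shares the TDMa libraries with the comparison above. There were 5 members higher and 8 lower (6.25% and 10%), no more than the backgrounds of 12% higher and 10.8% lower of 11492 genes. Rplp0 was at 0.29 in TDMa culture and 0.03 in TDM culture, a difference of 0.26 ± 0.044 (limma adjusted p = 9.8e-05), and Rps2 at 0.25 and 0.04, a difference of 0.21 ± 0.044 (limma adjusted p = 0.00078). Rpl34 was at -0.44 and 0.01, a difference of -0.45 ± 0.070 (limma adjusted p = 2.3e-05). The other higher members were Rpl12, Rplp2 and Rps3, and the other lower ones were Rpl27, Rpl23, Rps27a, Rpl26, Rpl19, Rps6 and Rpl15, of which the first 5 lie on chromosome 11. The counts moved when either TDM culture sgNlrc5 library was left out, which leaves 1 library in that group. Without the intensity trend both counts were 0. The shares of all genes called in these fits are not given here. Rpl12, Rplp2, Rps3, Rpl19, Rps6 and Rpl15 kept their calls in only 2 or 3 of the 8 fits that each left out 1 library, while Rplp0, Rps2, Rpl34, Rpl27, Rpl23, Rps27a and Rpl26 kept theirs in all 8.

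The same test between TDMa tumours and TDMa culture called 0 members higher and 56 lower, against backgrounds of 15% higher and 21.6% lower of 11782 genes, with a median of -0.38 against -0.07 over all genes. Rpl12 was at -0.53 in tumours and 0.28 in culture, a difference of -0.82 ± 0.12 (limma adjusted p = 8.5e-05). Rpl4 was at -0.62 and 0.14, Rps3a1 at -0.54 and 0.16, and Rps2 at -0.47 and 0.25, with differences of -0.76 ± 0.12, -0.70 ± 0.12 and -0.72 ± 0.13 (limma adjusted p = 0.00014, 0.00037 and 0.00061). The stalk gene Rplp0, not called in tumours, differed by -0.52 ± 0.13 from its increase in culture (limma adjusted p = 0.0057), a call that was lost under quantile normalisation. For Rpl34, Rpl27 and Rpl19, lower in both tables, the differences of -0.27 ± 0.12, -0.24 ± 0.12 and -0.20 ± 0.10 did not pass (limma adjusted p = 0.09, 0.13 and 0.14). Rpl22l1, also lower in both, did not pass either. Other members lower in both tables did pass, namely Rpl23, Rpl26, Rpl38 and Rps27a on chromosome 11 and Rpl15 on chromosome 14. Of the 24 members higher in TDMa culture, 14 were lower in tumours (58.3% of the 24 and 25.5% of the 55 lower in tumours). Of the 10 lower in culture, 9 were lower in tumours (90% of the 10 and 16.4% of the 55). Of the 46 not called in culture, 32 were lower in tumours (69.6% of the 46 and 58.2% of the 55). Whether these shares differ was not tested.

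The promoter letters split the members as follows in tumours. The 30 with CTTTC near the start had a median of -0.38 and 23 of them were lower, and the 30 without it had a median of -0.34 and 19 lower. The 40 with CGGAAG had a median of -0.37 and the 20 without it -0.35. The 6 with the E-box had a median of -0.58 and the 54 without it -0.36, and in TDMa culture these medians were -0.09 and 0.03. The 10 with AAGATGG had a median of -0.38 in tumours and the 50 without it -0.36. Among the printed stretches, that of Rpl26 holds both sets of letters, that of Rpl34 the reverse complement of CGGAAG only, and that of Rplp0 neither. The Rpl34 stretch still has an unbroken run of pyrimidines across its annotated start, in letters other than CTTTC. The difference between these groups of members was not tested.

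Other genes of ribosome production were also lower in tumours. Of 47 ribosome biogenesis factors 31 fell and 0 rose (median -0.39), among them Gnl3, which encodes nucleostemin, by 0.91 ± 0.083 and Nop58, a core protein of box C/D particles, by 0.97 ± 0.11 (limma adjusted p = 2.6e-05 and 8.7e-05). Of 17 translation factors and related genes with TOP messenger RNAs 11 fell (median -0.39), including the nucleolar chaperone Npm1, at -1.12 ± 0.12, and the translationally controlled Tpt1, at -0.74 ± 0.11 (limma adjusted p = 4.4e-05 and 0.00049). Of 13 genes of RNA polymerase I and its factors 7 fell (median -0.27), and of 9 ribosomal protein chaperones and importins 4 fell (median -0.24), including the importin Ipo7 by 0.65 ± 0.078 (limma adjusted p = 0.0001). Of 16 genes of mTORC1, S6 kinase, LARP1 and MYC, 5 fell: Rps6kb1 by 0.61 ± 0.091, Larp1 by 0.42 ± 0.069, Eif4ebp2 by 0.34 ± 0.091, Myc by 0.36 ± 0.10 (limma adjusted p = 0.00045, 0.00082, 0.012 and 0.015) and Mxi1, a MYC antagonist named here because it completes the 5. Of the ribosome genes outside the symbol rule, Rack1 fell by 0.44 ± 0.12 and Rpsa by 0.35 ± 0.12 (limma adjusted p = 0.012 and 0.03), and Fau was not called. The call of Rpsa was lost without sgScramble tumour 1 or 4, without sgNlrc5 tumour 2 or 4, and under quantile normalisation. With a replicate block the calls of Rpsa and Rack1 were lost (limma adjusted p = 0.087 and 0.052). With sgScramble tumours 2 and 3 as the only controls, Rpsa, Rack1 and Myc lost theirs (limma adjusted p = 0.25, 0.12 and 0.13). With sgNlrc5 tumours 3 and 4 only, Rpsa and Myc lost theirs (limma adjusted p = 0.071 and 0.12). Fau was called under quantile normalisation and under equal sums over genes that are not members. Among 77 mitochondrial ribosomal protein genes 28 fell and 1 rose (median -0.20), the riser being Mrps6 at 0.70 ± 0.096 (limma adjusted p = 0.00025). These counts stand beside the 19.7% of all genes called lower in tumours, and the immune cell markers given above moved in the same libraries.

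In TDMa culture the lists are to be read against 17.3% of all genes called higher and 16.9% lower. Of the 17 TOP genes 8 rose and 2 fell, with Eef1a1 at 0.24 ± 0.019, Eef2 at 0.23 ± 0.022 and Npm1 at -0.27 ± 0.025 (limma adjusted p = 1.5e-08, 1.3e-07 and 8.7e-08). Of the 47 biogenesis factors 1 rose and 11 fell, including Mrto4 by 0.57 ± 0.066 and Ddx56 by 0.52 ± 0.056 (limma adjusted p = 1.7e-06 and 6.9e-07). Of the 77 mitochondrial ribosomal protein genes 2 rose and 18 fell. Myc rose by 0.30 ± 0.051 (limma adjusted p = 0.00014), among 6 higher and 5 lower of 16. In TDM culture 0 genes of these lists were called.

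**Figure D5:**
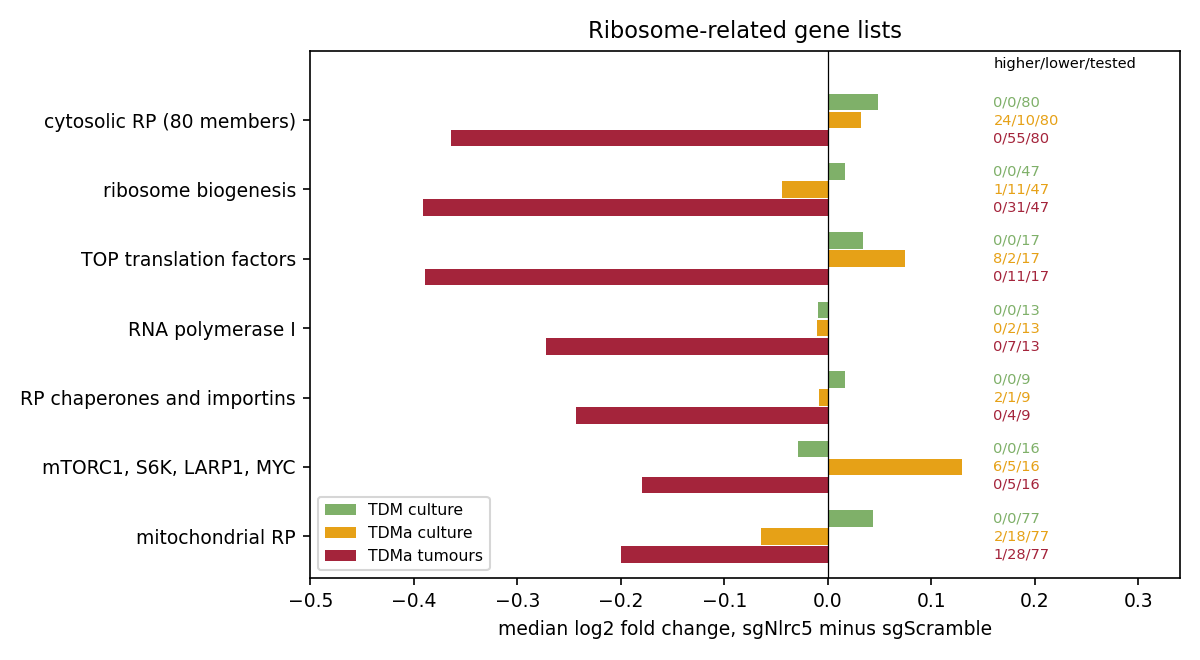
Median log2 fold change (horizontal axis, sgNlrc5 minus sgScramble) of the 80 members and of 6 ribosome-related lists in the 3 tables, with the number higher, lower and tested at the right. In TDMa tumours every list has a negative median, from -0.18 to -0.39, and in TDM culture no gene of the lists was called.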

How the data were processed

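RNA sequencing libraries of total RNA (16 in all, directional kit, per the labels' protocols) were deposited as 3 tables of log2 values, with separate tables for the cultures of each line and for the tumours. The values equal log2(normalised count + 1), where the authors scaled each table on its own, so levels across tables are rough. STAR 2.7.10a, DESeq2 1.36.0 and FastQC 0.12.0 are listed without roles in the submitters' processing notes, and the counter, annotation and strand setting are not given in the sources used here. In every library 100% of the low values were whole multiples of a single read within 0.1 (up to 2000 multiples), which gave the recovered reads per library. Replicates differed by more than counting error, with a chi-square per gene of 2.10 to 3.44 between replicates in culture and 9.33 to 49.1 in tumours.

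Genes averaging 10 or more normalised counts were fitted in R 4.3.3 with limma 3.58.1 (intensity trend, pseudocount 1), 1 model per table without a replicate block, and p-values were adjusted by the Benjamini-Hochberg method over all genes with a threshold of 0.05. Differences between guide effects were interaction terms over joined tables with library weights. The fit was run on simulated data with the same spread between replicates in every table. Real tumour replicates varied more than culture replicates (chi-square per gene of 9.33 to 49.1 against 2.10 to 3.44). The simulation therefore cannot show how the fit does at the spread of the tumours. Figures were drawn with Python 3.11.15.

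The members and lists were chosen with earlier results of these data known. Genes named were up to 8 called members per direction with the largest change and separate groups (with none called, those with the smallest p), Rplp0, Rplp1, Rplp2, Rpl5, Rpl11, Rps6, Rpl13a, the paralogues with their partners, up to 4 genes per list with the smallest p, and the 5 highest and lowest members per kilobase. Rpl4, Rps2 and Rps21 in tumours, Rpl12, Rps3a1, Rpl27 and Rpl19 beyond their calls, the chromosomes and the promoter letters were chosen after their values were seen. Transcript lengths and chromosomes came from GENCODE M21 and promoter windows from RefSeq GRCm38.p6. Some items are not reported here.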

Additional observations from a re-analysis of the deposited data

Results flagged for a closer look

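In tumours, 62 groups of 4 libraries were examined for a library far from the others, and chance flags about 1 in 20 groups. The groups cover the named members, and also the members' share of listed reads and their median deviation per library. Rps10 stood lowest in sgScramble tumour 2 at 64.0 normalised counts, with the nearest library at 110. Rps21 stood highest in sgScramble tumour 4 at 5080 normalised counts, with the nearest at 4284. Rpl22l1 stood lowest in sgNlrc5 tumour 3 at 109 normalised counts, with the nearest at 151.

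The guide effect differed between TDMa culture and TDM culture, by the test of the difference itself, for 13 of the 80 members. That is 6.25% of members higher and 10% lower, beside 12% and 10.8% of all genes, so members were called no more often than genes in general. The log2 differences were 0.26 for Rplp0, 0.21 for Rps2, 0.18 for Rpl12, 0.17 for Rplp2 and 0.15 for Rps3. They were -0.45 for Rpl34, -0.29 for Rpl27, -0.25 for Rpl23, -0.24 for Rps27a, -0.22 for Rpl26, -0.21 for Rpl19, -0.18 for Rps6 and -0.16 for Rpl15. Of 17 other settings, the calls of Rps3 held in 6, of Rplp2 in 8, of Rpl12 and Rpl15 in 9, of Rps6 in 10, of Rpl19 in 11, of Rplp0 in 15 and of the other 6 genes in 16.

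Between TDMa tumours and TDMa culture the 8 named members with the largest differences in guide effect stood at -0.92 for Rpl17, -0.90 for Rps24, -0.82 for Rpl12, -0.76 for Rpl4, -0.72 for Rps2, -0.70 for Rpl13a, -0.70 for Rps3a1 and -0.69 for Rpl5. Both sets of differences use the same TDMa culture libraries. Technical and biological sources of these differences were not tested.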

How the results depend on the processing

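In tumours the count of lower members was 42 to 58 when single libraries were left out, where the shares of all genes are not given here. It was 49 to 60 under the other planned settings outside the replicate block (17.5% to 23.6% of all genes). With sgScramble tumours 2 and 3 as the only controls it was 23 and the median was -0.22. In TDMa culture, leaving out single libraries gave 13 to 22 higher and 6 to 8 lower members with medians of -0.00106 to 0.0492. Each of these fits leaves 1 library in a guide group, and the shares of all genes called in them are not given here. No excess or shortfall of members is therefore read from their counts. In TDMa culture quantile normalisation gave 11 higher and 21 lower with a median of -0.0158 (all genes 15.3%, 15.8% and 0.0116). Equal sums gave 13 and 19 with -0.0147 (all genes 13.5%, 21.3% and -0.0473). Equal sums over other genes gave 13 and 19 with -0.0141 (all genes 13.7%, 21.3% and -0.0467). No intensity trend gave 1 and 0 (all genes 5.95% and 7.08%). In TDM culture leaving out single libraries gave medians of -0.00805 to 0.102 (all genes -0.00303 to 0.00154). For TDMa culture minus TDM culture it gave medians of -0.088 to 0.0404. For that difference quantile normalisation gave 2 higher and 17 lower, equal sums 3 higher, equal sums over other genes 2 higher, and no intensity trend 0 and 0. The shares of all genes called under these settings are not given here. Under quantile normalisation Rps3 and Rpl3 in TDMa culture turned to -0.0106 and -0.0284, and Rps3 in TDMa culture minus TDM culture to -0.00655. Without the 10 most abundant other genes in the denominator the mean shares were 5.98% and 6.18% in TDM culture (sgScramble and sgNlrc5), 6.65% and 6.72% in TDMa culture, and 6.18% and 4.64% in tumours. With a replicate block the counts of higher and lower members were 0 and 0 in TDM culture (0.517% and 0.5% of all genes). They were 25 and 11 in TDMa culture (18.6% and 17.9%) and 0 and 42 in tumours (17.7% and 16.2%). For TDMa culture minus TDM culture they were 5 and 7, and for tumours minus TDMa culture 0 and 45. The shares of all genes for these differences are not given here. Same-numbered libraries did not deviate together (r = -0.024 in TDM culture, -0.015 in TDMa culture, and -0.21, 0.11, -0.18 and -0.017 in tumours), so the numbers were not taken as pairs. The planned count-model test was not run because the deposited columns are log2 values. A limma voom fit to the recovered reads, and the 2 tumour subsets, were chosen after seeing the data. With 2 libraries per guide in culture, calls rest on variances shared across genes.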
